A study of Homo sapiens with 16 samples.

Results

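The clustered protocadherins are 53 genes that lie in 3 neighbouring groups on chromosome 5, with 15 PCDHA genes (PCDHA1 to PCDHA13, PCDHAC1 and PCDHAC2), 16 PCDHB genes and 22 PCDHG genes (12 PCDHGA, 7 PCDHGB and PCDHGC3 to PCDHGC5). CTCF binding over them was read from the 4 CTCF ChIP-seq peak lists as every peak that lay within chr5:140100000-140950000 of hg19. That window of 850 kb holds the 3 groups and their flanks, including part of DIAPH1. It held 9 and 17 peaks in the MCF10A replicates 1 and 2, and 8 and 28 peaks in the G12V replicates 1 and 2. Overlapping peaks merged into 30 sites, out of 29064 sites over the genome.

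MCF10A is a non-tumorigenic line of human mammary gland epithelial cells, labelled Parental here. The G12V cells (H-RAS Gv12 in the labels) are MCF10A cells that were given a mutant HRas gene by viral transduction and drug selection, so they carry the transgene and a selection history that the parental cells do not. Each cell type had 2 CTCF libraries, described in the methods as biological replicates, and an input library for each was used only inside peak calling. Nutlin, an activator of p53, was given only to the cells of the p53 libraries. The question was where CTCF sits before and after transformation. Peak lists hold no RNA, so neither the identity of the cells nor the expression of any protocadherin could be checked in them.

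Protocadherins are cadherin-related proteins of the cell surface that bind copies of themselves on neighbouring cells. They are best known in neurons, where each cell chooses a few promoters out of the clusters and so gains a surface identity. In the PCDHA and PCDHG groups each variable first exon has a promoter of its own and is spliced to constant exons shared by the whole group, whereas a PCDHB gene is a single exon. CTCF is a zinc finger protein that stops the cohesin ring on chromatin when its motif points toward the moving loop. At the protocadherins it is known to bind a conserved element in many of the promoters and enhancers that lie 3′ of the genes, such as HS5-1 after the PCDHA group, and to bring them together.

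The CTCF core, searched as CCANNAGNNGGC on both strands with up to 1 mismatch, stood at 7 of the 12 sites outside the member promoters and at 4 of the 18 promoter sites. Over all CTCF sites of the genome the share was 70.5%. In stretches 2000 bp beside the summits it was 13.3% in the window and 10.6% over the genome. The core was exact at the pair between the end of the PCDHA group and PCDHB1, the stretch in which HS5-1 is known to lie. Both are shown because they are the only sites of that stretch. Their summits lay 1007 bp apart, and each is printed here as the 150 bases around its summit on the plus strand, with the match in capitals (an exact match on the minus strand in both).
First site, chr5:140419900-140420049: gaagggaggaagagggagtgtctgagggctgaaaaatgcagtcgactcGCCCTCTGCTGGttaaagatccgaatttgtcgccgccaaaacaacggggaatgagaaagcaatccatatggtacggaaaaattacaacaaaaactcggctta
Second site, chr5:140420907-140421056: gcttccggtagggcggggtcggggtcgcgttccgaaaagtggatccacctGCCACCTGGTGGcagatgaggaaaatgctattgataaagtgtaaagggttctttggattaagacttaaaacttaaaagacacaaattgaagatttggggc

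The same core stood at the site in the last PCDHG exon and at 2 DIAPH1 sites called in all 4 libraries, again without a mismatch and on the minus strand. At PCDHAC1 it stood on the plus strand with 1 mismatch. These matches are given with 9 bases of flank on each side, read along the strand of the motif, with the match in capitals.
PCDHAC1 exon 1, chr5:140306188-140306217, plus strand: gtctctgcaCCCCTAGGCGGCgctgcgctc
PCDHG last exon, chr5:140892061-140892090, minus strand: aggctatggCCACTAGGGGGCgcactgggg
DIAPH1 intron, chr5:140904452-140904481, minus strand: gatgctcagCCAGCAGGTGGCgctgggagc
DIAPH1 intron, chr5:140947256-140947285, minus strand: ctcttctgtCCACTAGGTGGCactcaccca

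The variable promoters had sequence of their own in common. Within each gene group, 1 word of 9 letters recurred in the stretch from 200 bp before to 50 bp after the start: GATGTCGCT in PCDHA, GGTGGCGCT in PCDHB and GCGCCGCTG in PCDHG. Each word is the one shared by most promoters of its group, so how often it occurs there is a description and not a test. A selection of promoters with a peak, made by no fixed rule, is shown on the plus strand, which is also the strand of these genes. Promoters of the same group that had no peak in any library stand beside them. Those left out include PCDHGA1, PCDHGA8 and PCDHGA12, whose word lay -109, -70 and -71 bp from the summit. PCDHGA4 and PCDHGB3, which had a peak and lack the word, are also left out. Capitals mark the word. In PCDHGB7 and PCDHGB2 they mark the stretch that matches it with 1 mismatch.
PCDHA1, no peak: ttggccacatGATGTCGCTgtacaccacaa
PCDHA4, no peak: ggagccacatGATGTCGCTctttaccacaa
PCDHA12, peak further 3′: tcagtcacatGATGTCGCTctacactcaga
PCDHB9, both G12V libraries: gaagccacaaGGTGGCGCTgcagactgaag
PCDHB10, both replicates 2: gaggccacacGGTGGCGCTgcaggctaaag
PCDHB14, both replicates 2: ggagacacatGGTGGCGCTacaggataaga
PCDHB16, G12V replicate 2: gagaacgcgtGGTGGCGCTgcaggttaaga
PCDHB15, no peak: gacaacgcatGGTGGCGCTgcaggctaagg
PCDHB4, no peak: caagacgcagGGTGGCGCTgcaggctaagt
PCDHGA10, both replicates 2: aggactctgaGCGCCGCTGttcacctacta
PCDHGB2, G12V replicate 2: aaacctctgaGCGTCGCTGttggtcaaaag
PCDHGB7, 3 libraries: gagcctctggGCGCCGCCGtcggccagtgc
PCDHGA9, no peak: aggactctgaGCGCCGCTGttgatcaactc

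The words were common within their group and rare elsewhere. GATGTCGCT stood in 9 of 15 PCDHA promoters, GGTGGCGCT in 14 of 16 PCDHB promoters (PCDHB1 and PCDHB6 lacked it) and GCGCCGCTG in 11 of 22 PCDHG promoters. Over the same stretch of all 20096 protein-coding promoters, counting both strands, they stood in 0.109%, 0.607% and 1.76%. All matches within the groups were on the strand of the gene, at median distances of -49, -62.5 and -63 bp from the start. The first 6 letters of the PCDHB word are the end of the CTCF core in PCDHB9, so there the word and the core overlap.

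A word in the promoter did not mean a peak in these lists. Of the 14 PCDHB promoters with the word, 6 had a peak in at least 1 library and 8 had none. In PCDHA, 1 of the 9 promoters with the word had a peak, and that peak (PCDHA12) lay inside the exon rather than at the word. In PCDHG, 4 of 11 promoters with the word and 6 of 11 without it had a peak. When 1 mismatch was allowed, the word stood on the strand of the gene in 17 of the 22 PCDHG promoters (14.7% of all promoters), which were 8 of the 10 with a peak and 9 of the 12 without one. PCDHGA4 and PCDHGB3 had a peak and held neither the core at the summit nor this form of the word.

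The 4 libraries differed in how much they could show. The lists of MCF10A replicates 1 and 2 held 11346 and 20136 peaks, those of G12V 12004 and 27678. The window took 0.0793% and 0.0844% of the MCF10A lists and 0.0666% and 0.101% of the G12V lists (exact Clopper-Pearson 95% intervals, which together ran from 0.0288% to 0.151%). Depth, worked out from the fold and p columns of the lists, was 18.6, 11.5, 13.6 and 11.4 M ChIP reads in the same order of libraries, and the deepest library had the shortest list. At the 8006 sites called in all 4 libraries, the median number of fragments over the summit was 30, 36, 21 and 48. A missing peak is therefore a site not detected in that library, which does not show whether CTCF was absent there. Intervals and fragment numbers cover counting error only.

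**Figure D1:**
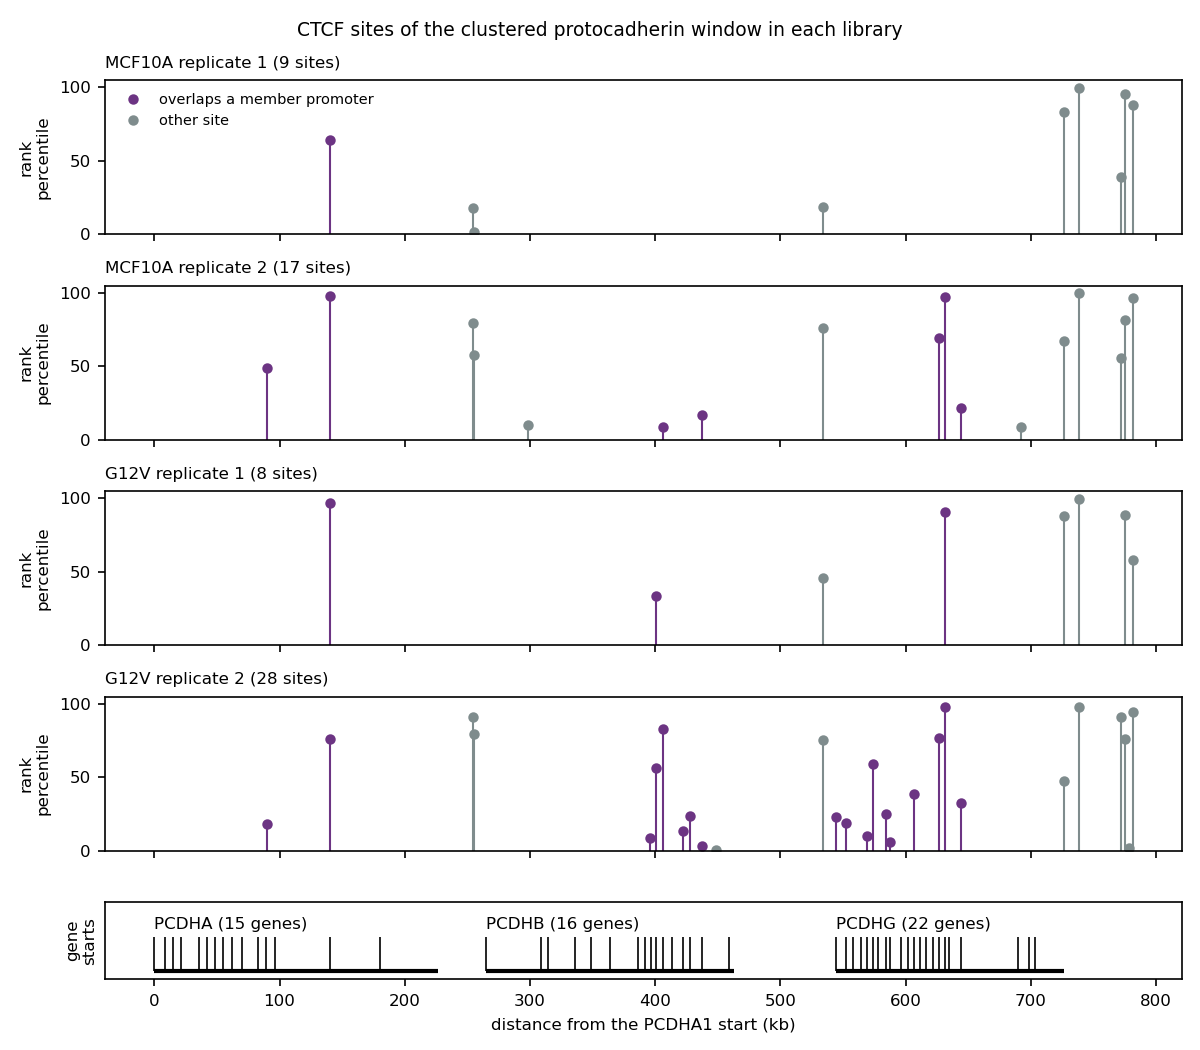
CTCF sites of the window in each library. The x axis gives the distance from the PCDHA1 start in kb, and the y axis gives the rank percentile of the peak within its own list (100 is the strongest). Purple points belong to merged sites that overlap a member promoter, grey points to the other sites, and the bottom panel marks the 53 gene starts. The PCDHA12 point of G12V replicate 2 is purple for that reason, although the peak itself began just past the promoter's end. PCDHAC1 (the purple point over the PCDHA group that is present in all panels) and the tallest DIAPH1 site at the right recur in every panel, whereas 10 of the purple points appear in G12V replicate 2 alone.

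In the window as a whole, G12V did not differ from MCF10A by more than the replicates differed from each other. The number of peaks was 13 ± 5.66 in MCF10A and 18 ± 14.1 in G12V (SD, n = 2 libraries each, exact two-sided permutation test, p = 1, where the smallest p that 2 against 2 can give is 0.333). The share of the list was 0.0819% ± 0.00361 in MCF10A and 0.0839% ± 0.0244 in G12V (SD, n = 2, exact permutation p = 1). With the top 11346 peaks of each list, the MCF10A libraries had 9 and 12 peaks and the G12V libraries 8 and 11. The difference in number also turned without G12V replicate 2, to -5 peaks.

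The 30 sites were classed by the libraries in which they were called. Of them 6 were called in all 4 libraries (27.5% of all sites of the genome had that pattern), 0 in both MCF10A and no G12V library (0.261% of all sites), and 1 in both G12V and no MCF10A library (3.33%). Both replicates 2, and neither replicate 1, held 5 sites (19.1% of all sites). G12V replicate 2 alone held 12 sites (25.4%) and MCF10A replicate 2 alone held 2 (3.37%). Neither replicate 1 held a site of its own (0.203% of all sites were in MCF10A replicate 1 alone and 0.726% in G12V replicate 1 alone). The last 4 sites were called in 3 libraries. Outside the first 4 patterns named, which ask for both libraries of a kind, there were thus 18 sites, beside 49.7% of all sites. The share of all sites called in 3 libraries is not given here. With G12V replicate 1 left out, 10833 sites of the genome were called in every remaining library, 9 of them in the window. With MCF10A replicate 1 left out, these numbers were 10594 and 7. In all 4 libraries they were 8006 and 6. No site lay in the 64.7 kb before PCDHA1.

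PCDHAC1, one of the C-type genes that neurons express more evenly than the variable genes, had the only promoter of the 53 with a peak in all 4 libraries (3.92% of all protein-coding promoters had one). Its summit lay inside exon 1, 290 bp after the start (site chr5:140305929-140306394). The summit held 49 and 56 fragments in the MCF10A libraries and 36 and 66 in the G12V libraries. The rank percentile was 64.2 and 98 for MCF10A, then 97.1 and 76.3 for G12V. Low and high values thus fell in both cell types, and the groups overlapped on either scale. PCDHAC2, the other C-type gene of the group, had no peak in its promoter in any library.

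Of the 13 variable PCDHA promoters, 7.69% had a peak in any library, beside 11.8% of all protein-coding promoters. PCDHA12 alone was marked, in MCF10A replicate 2, where 21 fragments lay over a summit 551 bp after the start, within exon 1. In G12V replicate 2 the same site held 26 fragments, but that peak began just past the promoter's end, so PCDHA12 was not counted there. The other 12 genes, PCDHA1 to PCDHA11 and PCDHA13, had no promoter peak in any library, although 8 of them hold the PCDHA word.

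Of the 16 PCDHB promoters, MCF10A replicate 1 marked 0, MCF10A replicate 2 marked 2, G12V replicate 1 marked 1 and G12V replicate 2 marked 6. In the same order these were 0%, 12.5%, 6.25% and 37.5%, beside 5.4%, 9.31%, 5.42% and 11.1% of all protein-coding promoters. PCDHB9 was the single site of the window called in both G12V libraries and in no MCF10A library. It held 18 and 37 fragments (percentiles 33.7 and 56.2 within the lists), and an exact plus-strand CTCF core lay at -76 bp from its start. In the reduced lists of equal length PCDHB9 stayed in G12V replicate 1 but fell out of G12V replicate 2, so no G12V-specific site was left.

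PCDHB10, the next gene 3′, was called in the replicates 2 of both cell types and in neither replicate 1. It held 16 fragments in MCF10A replicate 2 and 45 in G12V replicate 2, where it was the strongest PCDHB site at percentile 82.8. Its core carried 1 mismatch and lay at -43 bp from the start. PCDHB14 was called in the same pair of libraries with 14 and 20 fragments (percentiles 17.1 and 3.01). The remaining 3 promoters, PCDHB12, PCDHB13 and PCDHB16, were called in G12V replicate 2 only, with 18, 21 and 25 fragments and percentiles of 13.1, 23.2 and 8.62. The other 10 PCDHB promoters, those of PCDHB1 to PCDHB8, PCDHB11 and PCDHB15, had no peak.

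PCDHGB7 stood out among the PCDHG promoters, with a peak in 3 libraries. The summit held 47 fragments in MCF10A replicate 2, 30 in G12V replicate 1 and 70 in G12V replicate 2, at percentiles of 97.3, 90.8 and 97.6. MCF10A replicate 1 had no peak there. The CTCF core was not found in the 150 bp around the summit with up to 1 mismatch, and the exact PCDHG word was not found either. The form of the word with 1 mismatch was centred 13 bp from the summit.

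PCDHGA10 and PCDHGA12 were the other PCDHG promoters called in more than 1 library, both in the replicates 2. PCDHGA10 held 27 fragments in MCF10A and 43 in G12V (percentiles 69.2 and 76.4), with the word at -1 bp from its summit. PCDHGA12 held 24 and 21 fragments (percentiles 21.8 and 32.7). G12V replicate 2 alone called PCDHGA1, PCDHGA2, PCDHGA4, PCDHGA6, PCDHGA8, PCDHGB2 and PCDHGB3. These 7 promoters held 15 to 28 fragments, highest at PCDHGB2 (28 fragments, percentile 58.7) and lowest at PCDHGA2 and PCDHGA6 (15 fragments each). PCDHGA3, PCDHGA5, PCDHGA7, PCDHGA9, PCDHGA11, PCDHGB1, PCDHGB4, PCDHGB5, PCDHGB6 and the 3 C-type genes PCDHGC3, PCDHGC4 and PCDHGC5 had none.

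**Figure D2:**
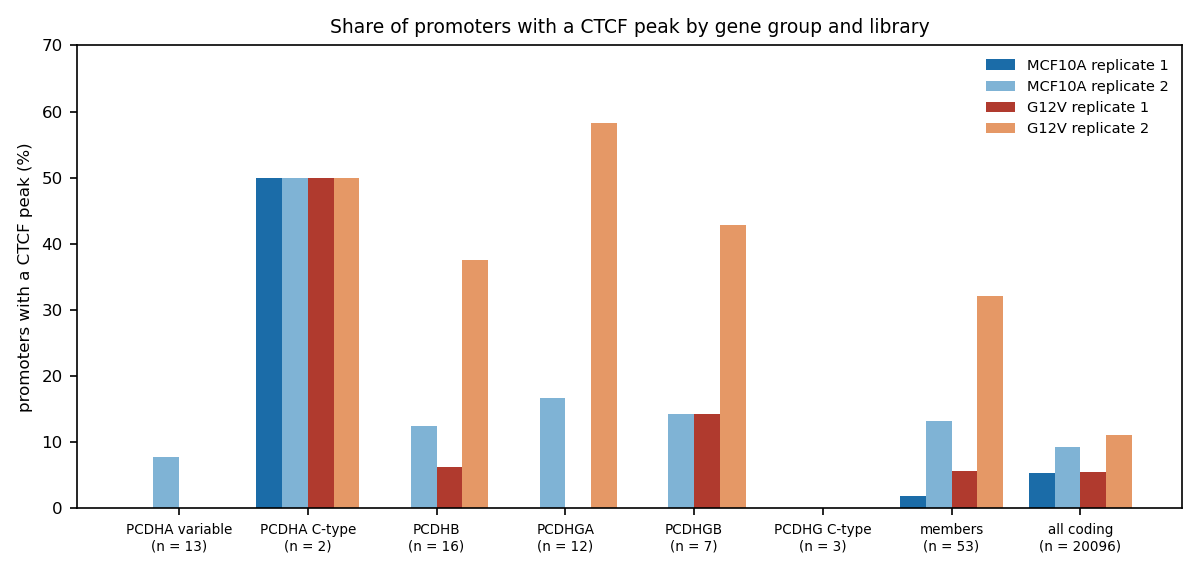
Share of promoters with a CTCF peak. Bars give the percent of promoters (1000 bp before to 500 bp after the start) that overlap a peak, by gene group and library, with all members and all 20096 protein-coding promoters on the right. Over all members the bars stand at 1.89%, 13.2%, 5.66% and 32.1%, beside 5.4%, 9.31%, 5.42% and 11.1% of all protein-coding promoters, and the 2 C-type PCDHA promoters stand at 50% in each library because PCDHAC1 was called in all of them.

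Counted over the 53 promoters, 1 and 7 had a peak in the MCF10A libraries and 3 and 17 in the G12V libraries. In the same order, 5.4%, 9.31%, 5.42% and 11.1% of all protein-coding promoters had one. The members' share was thus below the share of all promoters in MCF10A replicate 1, close to it in G12V replicate 1 and above it in both replicates 2. The means were 4 ± 4.24 promoters in MCF10A and 10 ± 9.9 in G12V (SD, n = 2 libraries, exact two-sided permutation test, p = 0.667). Without G12V replicate 2 the difference turned to -1 promoter, and in the lists of equal length the counts were 1, 4, 3 and 4. In at least 1 library a peak was found at 18 of the 53 member promoters, beside 11.8% of all protein-coding promoters. Of the 53 member promoters, 10 were called in G12V replicate 2 only, beside 2.09% of all protein-coding promoters. Among promoters with a peak in any library, that pattern held for 10 of 18 members and for 421 of 2376 protein-coding promoters.

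Those 10 sites held 15 to 28 fragments and ranked at percentiles of 5.73 to 58.7 in their list, 9 of them below its middle. The lowest 5% of peaks in the other 3 lists held at most 18, 14 and 13 fragments. Fragment numbers were not scaled for enrichment. At the sites of all libraries the median was 48 in G12V replicate 2 and 30, 36 and 21 in the others. Whether the 10 sites could have been called there was not tested. Of the 12 sites of the window called in G12V replicate 2 alone, the median percentile in that list was 15.9, beside 18.9 for all 7390 such sites of the genome. The 2 that were not promoters lay in the pseudogene PCDHB18P (11 fragments) and in a DIAPH1 intron that is also exon 3 of DIAPH1-AS1 (23 fragments). Sites of MCF10A replicate 2 alone lay between PCDHB1 and PCDHB2 (13 fragments) and 2586 bp after the PCDHGC3 start (15 fragments).

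The promoter summits sat close to the annotated start. At the 6 PCDHB promoters they lay at -82 to -12 bp, and at the 10 PCDHGA and PCDHGB promoters at -91 to 106 bp. At the 10 of these 16 promoters that hold the exact word, its centre lay from -109 to 43 bp from the summit, with a median of -21.5 bp.

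**Figure D3:**
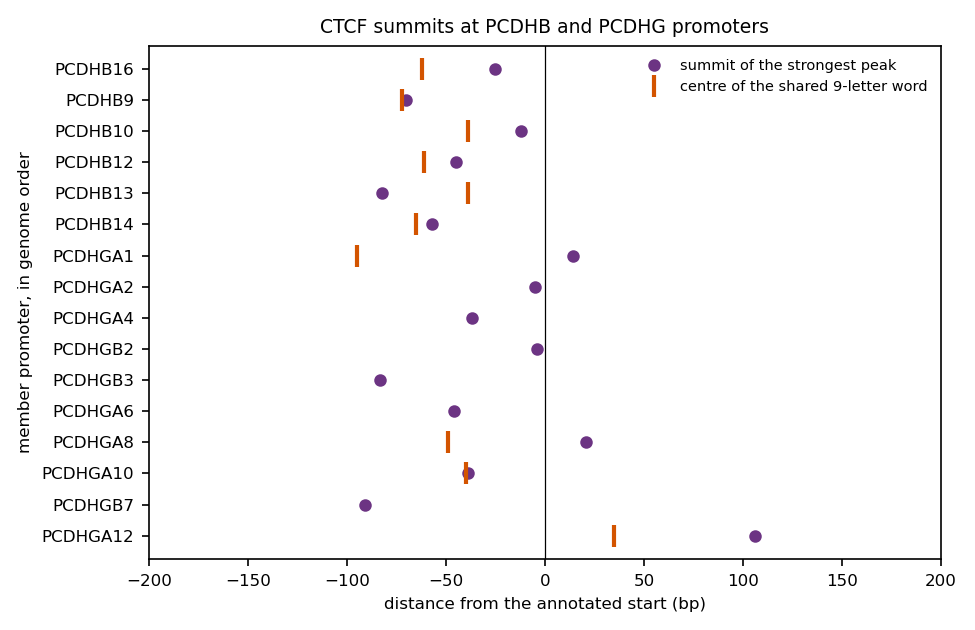
CTCF summits at the PCDHB and PCDHG promoters with a peak. The x axis gives the distance from the annotated start in bp, purple points are the summit of the strongest peak and orange bars are the centre of the exact 9-letter word where the promoter holds it. All 16 summits lie from -91 to 106 bp from the start, and in PCDHB9 and PCDHGA10 the word and the summit nearly coincide, at -2 and -1 bp.

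The pair of sites between the PCDHA group and PCDHB1 was called in both MCF10A libraries and in G12V replicate 2. The first site (chr5:140419795-140420193) held 29 and 45 fragments in MCF10A and 64 in G12V replicate 2. The second (chr5:140420803-140421117) held 26 and 31 fragments in MCF10A and 46 in G12V replicate 2. Neither was in the list of G12V replicate 1, and the DIAPH1 site at chr5:140937390-140937780 had the same library pattern. Over the genome, 10833 sites were called in every other library, beside 8006 in all 4 libraries. G12V replicate 1 had the fewest fragments at shared sites. Why the pair was missing from its list was not tested. The percentiles ran from 17.8 to 91.1 at the first and from 1.68 to 79.2 at the second, lowest in MCF10A replicate 1 and highest in G12V replicate 2 at both.

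Between PCDHB and PCDHG, 1 site was called in all 4 libraries, in exon 1 of TAF7, which encodes a subunit of the general transcription factor TFIID. It held 29 and 42 fragments in MCF10A and 23 and 44 in G12V, so replicate 2 was the higher in each cell type. No core with up to 1 mismatch lay in the 150 bp around its summit. In the last exon of the PCDHG group, which all 22 genes share (chr5:140891857-140892466), the shared site held 39 and 43 fragments in MCF10A and 37 and 56 in G12V, over an exact minus-strand core 4 bp from the summit.

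The strongest site of the window lay 3′ of the PCDHG group, in an intron of DIAPH1, a formin that nucleates actin filaments (chr5:140904276-140904801). It held 72 and 79 fragments in MCF10A and 47 and 79 in G12V, and ranked at percentiles of 99.4, 99.7, 99.4 and 98.2 in the same order. DIAPH1 introns held 2 more sites called in all 4 libraries. The one at chr5:140940451-140940832 held 45, 58, 29 and 70 fragments and the one at chr5:140947096-140947523 held 48, 54, 25 and 76 (MCF10A replicates 1 and 2, then G12V replicates 1 and 2). Another at chr5:140937390-140937780 was called in 3 libraries, with 27 and 45 fragments in MCF10A and 61 in G12V replicate 2. G12V replicate 1 was the lowest library at each of the 3 shared DIAPH1 sites.

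**Figure D4:**
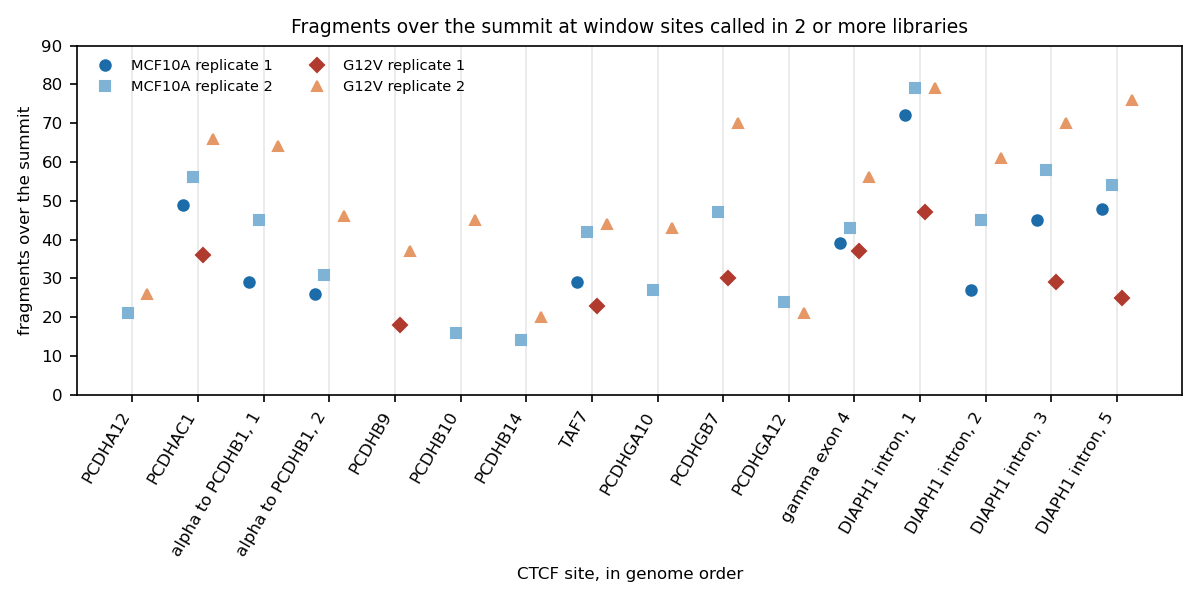
Fragments over the summit at the 16 window sites called in 2 or more libraries, in genome order. Each symbol is 1 library (blue for MCF10A, red and orange for G12V), and a library without a peak at a site has no symbol. G12V replicate 2 (orange triangles) is highest or level with the highest at 15 of the 16 sites, and G12V replicate 1 (red diamonds) is lowest at each of the 6 sites called in all libraries.

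Fold enrichment over the local background was compared between cell types at the 8006 sites called in all 4 libraries with limma on quantile-normalised log2 values. None of the 8006 sites passed an adjusted p of 0.05 (0% higher and 0% lower in G12V), and 419 had an unadjusted p below 0.05. The log2 difference, G12V minus MCF10A, was -0.07 ± 0.46 at PCDHAC1 (SE, limma adjusted p = 0.998), 0.16 ± 0.48 at TAF7 (adjusted p = 0.99) and -0.56 ± 0.49 at the last PCDHG exon (adjusted p = 0.983). At the DIAPH1 sites it was -0.10 ± 0.41, -0.26 ± 0.47 and -0.44 ± 0.45 (SE, adjusted p between 0.987 and 0.992). Over all sites tested, 90% of the differences lay between -0.77 and 0.77, and all 6 lay within that range. With 2 libraries per cell type, a p that misses the threshold does not show that the cell types are alike.

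Within the lists, the median rank of the 6 sites of all libraries lay above that of all sites with the same pattern in 3 libraries. The median percentile of the 6 in MCF10A replicates 1 and 2 and G12V replicates 1 and 2 was 85.5, 88.8, 88.4 and 76.4. Over all 8006 sites it was 58.1, 72.3, 59.7 and 80. Single sites of the 6 went down to 18.2, 67.3, 45.9 and 47.2 in the same order, below the medians of all sites. Sites called in both replicates 2 only had medians of 21.8 and 32.7, beside 28.8 and 41.9 over the genome.

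The CTCF core with up to 1 mismatch was found in the 150 bp around the summit at 11 of the 30 sites (36.7%, exact 95% interval 19.9 to 56.1%). Over all 29064 sites the share was 70.5%, and 2000 bp beside the summits it was 13.3% in the window and 10.6% over the genome. Member promoters held it at 4 of 18 sites, the other sites up to the end of PCDHG at 4 of 7, and the DIAPH1 sites at 3 of 5. At the promoters 3 matches lay on the plus strand, the strand of the genes, and 1 (PCDHGA1) on the minus strand. All 7 matches elsewhere lay on the minus strand, 6 of them exact. Without a mismatch the share in the window was 23.3%, beside 26% over all sites. These shares were not matched for library pattern. In the window 12 of the 30 sites were called in G12V replicate 2 alone, beside 25.4% of all sites. Over whole promoters, 35 of the 53 members held the core with up to 1 mismatch, beside 81.8% of all protein-coding promoters, and 6 held it exactly, beside 9.2%.

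The 20 bases of PCDHB9 that begin with its CTCF core were also aligned without gaps to the other promoters, on both strands. In PCDHB promoters other than PCDHB9 the best alignment had 12 to 18 identical bases (median 15), in PCDHA 12 to 15 (median 13) and in PCDHG 11 to 14 (median 13). The median over all 20096 promoters was 13. At least 15 identical bases were found in 13 of those 15 PCDHB promoters, 2 PCDHA promoters and 0 PCDHG promoters, beside 2.84% of all promoters. PCDHB10, with a peak, had 18. PCDHB4, PCDHB7, PCDHB11 and PCDHB15, all without a peak, had 16, as did PCDHB14, with one.

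Variable exons resemble each other, and the reads were kept only where they mapped to a single place. Of 60-base stretches in the window, 95.3% occurred once in the genome. Promoters with a peak ranged from 69.3% to 100% unique (median 100%, n = 18) and those without from 72% to 100% (median 100%, n = 35). The least unique promoter, PCDHB13, had a peak in G12V replicate 2, and 64.1% of that site was unique. Its part in the missing peaks was not tested.

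Protocadherins outside the clusters were read beside the members. Of 12 such genes, PCDH1 had a promoter peak in all 4 libraries and PCDH15 in G12V replicate 2 only, and the other 10 had none.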

How the data were processed

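CTCF ChIP-seq of MCF10A and G12V cells (2 libraries each) was analysed from peak lists. The authors mapped single-end reads to hg19 with Bowtie, keeping reads with 1 mapping place, and called peaks for each library against its input with MACS2 at a q of 5%. The versions used for the ChIP-seq are not given in the sources used here. The deposited columns are fold enrichment (a ratio), the -log10 of p and of q, a score made from the -log10 q, and a summit offset. List length depends on depth and on the enrichment of each library, so ranks within a list were used. The 4 p53 lists were read only for the window.

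Peaks with an overlap of 1 bp or more formed 1 site. Fragments over a summit, background and depth were solved from the fold and p columns, on the assumption that both follow MACS2's Poisson formula, and checked on simulated data. Promoters ran from 1000 bp before to 500 bp after the start of the canonical GENCODE v44lift37 transcript, and sequences came from GRCh37, the files' build. The 2 cell types were compared by exact two-sided permutation (6 ways to assign the libraries) and by limma 3.58.1 (trend, Benjamini-Hochberg, all shared sites), tested on simulated data. Python 3.11.15, pandas 2.3.3, numpy 2.4.6, scipy 1.17.1, R 4.3.3 and samtools 1.23.1 were used. Sites were named if they overlapped a member promoter, were called in all 4 libraries, were specific to 1 cell type or led their stretch of the window, and the others are given by their values as well. Alternatives covered the q threshold, list length, promoter size, merging, motif rules, normalisation, a replicate block and leaving out each library. The 9-letter words, the alignment to PCDHB9, the longer CTCF core and the start of any transcript were added after the data were seen. Members and lists were chosen with earlier results of these data known.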

Additional observations from a re-analysis of the deposited data

Results flagged for a closer look

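The p53 lists were not part of any comparison. In the window, 1 p53 peak was listed, in G12V p53 replicate 2, and 0 in each of the other 3 p53 lists, both MCF10A lists included. It lay at chr5:140157591-140157823, 7.99 kb before PCDHA1, with a fold enrichment of 5.61 and a -log10 q of 6.7, at percentile 18.3 of a list of 2619 peaks. No CTCF peak overlapped it. Groups of 2 libraries were too small to look for outlying samples.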

How the results depend on the processing

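Lists cut to equal length turned the difference in peaks (G12V minus MCF10A) from 5 to -1 and that in percent of list from 0.00203 to -0.00881. They also changed the G12V-specific sites from 1 to 0, the sites of both replicates 2 only from 5 to 1, and the share of sites with the core from 36.7% to 57.1%. The last value is over 14 sites, and the share over the genome with the same cut is not given here. Up to 2 mismatches gave 83.3%, beside 80% in windows 2000 bp away. Promoters with the core fell from 35 to 6 without a mismatch, 9 in the shorter promoter (17%, beside 37.2% of all promoters) and 3 with the longer core (5.66%, beside 17.3%). Leaving out each library gave differences of -5 to 15 peaks, -0.0152 to 0.0193 percent of list and -1 to 13 promoters, the negative ends without G12V replicate 2. Percent of list also turned without MCF10A replicate 1, to -0.000522. G12V-specific sites ranged from 1 to 13 (13 without G12V replicate 1) and MCF10A-specific sites from 0 to 3 (3 without G12V replicate 2). With 1 library left in a cell type, limma assumes that it varies like the other pair. Log2 differences in fold enrichment ranged from -0.71 to 0.60 at PCDHAC1, -0.17 to 0.43 at TAF7, -1.19 to 0.06 at the last PCDHG exon, and -0.32 to 0.11, -0.84 to 0.31 and -0.65 to -0.25 at the DIAPH1 sites. The cause of these changes was not tested.

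The replicate block left 0 sites called (454 with an unadjusted p below 0.05), as did median centring (403) and the -log10 p (477). In the labels, same-numbered replicates share only a number. Over the 8006 sites called in all libraries, their deviations correlated at 0.0308. That value leaves out every site missing from a list, so it cannot show whether same-numbered replicates shared a batch. In both cell types the longer list came from the replicate of the same number, and 19.1% of all sites were called in that pair of libraries only. A shared batch was not tested. The block was not applied to the counts of peaks, promoters and sites, which came from no model. A list holds only peaks past the caller's threshold, so a weak promoter site missing from it was not detected at that depth.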
